A study of Mus musculus with 6 samples.

Results

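The Zfp354 cluster is a run of zinc finger genes on mouse chromosome 11, described here together with the kinase gene Clk4 that follows it. Its 6 members are Zfp354a, Zfp354b, Zfp354c, Zfp454, Zfp879 and Clk4, taken by symbol from the 24028 genes of the deposited table, and each was found on 1 row. They were chosen by their FPKM in these same libraries, as neighbours with higher values in the mutant oocytes. Their differences between the groups are therefore a description and carry no test. RNA was measured in germinal vesicle oocytes, the fully grown oocytes arrested before meiotic maturation, and each of the 6 libraries was made from 15 oocytes pooled from 1 female of about 3 months. The 3 control libraries came from Ring1 -/-; Rnf2 f/f females. The 3 double-knockout (dKO) libraries came from Ring1 -/-; Rnf2 f/f; Zp3-cre females, in which a Cre recombinase driven by the promoter of an oocyte gene deletes the floxed Rnf2 alleles during oocyte growth. Both groups lack Ring1 and share a mixed FVB, 129/Sv and C57BL/6J background, so the design asks what the added loss of Rnf2 does, and no group with intact Ring1 or with the transgene alone was measured.

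Ring1 and Rnf2 encode the E3 ubiquitin ligases of Polycomb repressive complex 1, which marks histone H2A and keeps many developmental genes silent. KRAB zinc finger proteins are a large vertebrate family of DNA-binding repressors. They bind DNA with arrays of C2H2 fingers and recruit the corepressor TRIM28 through their KRAB box, and many of them silence transposable elements. Their genes lie in clusters that arose by local duplication. CLK4 is a dual-specificity kinase of the nucleus that phosphorylates the SR proteins that control splicing.

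Along the chromosome the members stand in the order Zfp354c, Zfp879, Zfp454, Zfp354b, Zfp354a and Clk4 in the RefSeq annotation of GRCm38. The submitters' processing notes name the older build mm9, so RefSeq was used for the order of genes and for promoter sequence only. Translated GENCODE transcripts gave a reading frame of 573 residues with 14 C2H2 finger patterns for Zfp354a, 601 with 14 for Zfp354b and 560 with 12 for Zfp354c. Zfp454 had 536 residues with 12 patterns and Zfp879 had 563 with 14. All 5 of these frames matched a KRAB box pattern. Clk4 had 481 residues and matched neither pattern. The family resemblance reaches the nucleotide level. Of the 50-base stretches in Zfp354b transcripts 21.6% also occur in Zfp354a, and of those in Zfp354a 11.8% occur in Zfp354b, so reads of this pair can be split between them and their separate values are uncertain to that extent. Zfp354c and Zfp879 share 15 such stretches (0.284% and 0.610% of their own), and Zfp454 and Clk4 share none with any other gene.

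RefSeq promoter sequence was held for 4 members, and the 250 bases before the start of each are shown because the members lie side by side and were higher in the same libraries. The build is GRCm38.p6. The windows are chr11:50841553-50841802 (minus strand) for Zfp879, chr11:50887511-50887760 (minus) for Zfp454, chr11:50931636-50931885 (minus) for Zfp354b and chr11:51262864-51263113 (plus) for Clk4. Capitals mark the matches to a pair of known motifs that were searched for after the sequences had been seen, namely the core of the ZNF143 binding site in the zinc finger promoters and the cAMP response element in Clk4.
Zfp879: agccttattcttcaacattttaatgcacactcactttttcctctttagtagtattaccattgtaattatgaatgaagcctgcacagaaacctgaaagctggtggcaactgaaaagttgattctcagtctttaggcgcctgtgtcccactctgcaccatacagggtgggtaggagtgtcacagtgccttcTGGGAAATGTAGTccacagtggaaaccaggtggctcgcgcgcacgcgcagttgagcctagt
Zfp454: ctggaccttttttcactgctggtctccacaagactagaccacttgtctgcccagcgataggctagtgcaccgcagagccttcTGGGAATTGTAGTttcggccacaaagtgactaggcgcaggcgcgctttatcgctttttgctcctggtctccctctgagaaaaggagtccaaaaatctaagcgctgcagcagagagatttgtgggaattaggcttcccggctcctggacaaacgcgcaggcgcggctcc
Zfp354b: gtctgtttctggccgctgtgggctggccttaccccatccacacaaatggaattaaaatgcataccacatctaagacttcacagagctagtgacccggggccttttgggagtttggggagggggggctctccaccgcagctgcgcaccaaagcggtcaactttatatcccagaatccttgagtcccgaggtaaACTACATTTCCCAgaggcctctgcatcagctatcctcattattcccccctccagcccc
Clk4: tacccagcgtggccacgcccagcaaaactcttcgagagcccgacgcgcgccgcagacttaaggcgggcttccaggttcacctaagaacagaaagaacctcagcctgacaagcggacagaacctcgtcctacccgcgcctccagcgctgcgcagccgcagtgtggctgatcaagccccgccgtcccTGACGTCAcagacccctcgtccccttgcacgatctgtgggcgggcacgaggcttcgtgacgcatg

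The ZNF143 core was searched on both strands as the capitals of Zfp354b, with the seventh and the eighth of those bases left free. It lies 61 to 49 bases before the start of Zfp879, 168 to 156 before Zfp454 and 58 to 46 before Zfp354b, on the opposite strand in Zfp879 and Zfp454. All 3 zinc finger promoters held thus contain it. The same pattern occurs in 1.48% of the 27025 promoter windows of the RefSeq table and in 15.7% of 312 windows of other genes with zinc finger symbols (Zfp with a number, Zkscan or Zscan). It occurs in 0 of the 23 windows held for the genes around the cluster. The cAMP response element was searched as TGACGTCA, which reads the same on both strands and does not overlap the ZNF143 core, and lies 65 to 58 bases before the start of Clk4. It occurs in 1.62% of the RefSeq windows. By limma, with Benjamini-Hochberg adjustment over all genes tested, 14.0% of genes were higher in dKO oocytes. Of tested zinc finger genes outside the cluster this held for 2 of 27 with the ZNF143 core (7.41%) and 27 of 185 without it (14.6%), and for 3 of 8 with the cAMP response element (37.5%) and 26 of 204 without it (12.7%). Of all tested genes outside the cluster with a window it held for 17 of 284 with the ZNF143 core (5.99%) and 1153 of 8246 without it (14.0%), and for 33 of 250 with the cAMP response element (13.2%) and 1137 of 8280 without it (13.7%). A match describes the letters of a window and shows no binding. The windows also differ in CpG content. Clk4 has 25 CpG in its 250 bases, more than 86.5% of the 16892 windows of genes in the deposited table, whereas Zfp454 has 13, Zfp879 and Zfp354b have 6 each, and the median of those windows is 10.

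The values are FPKM, which scale fragments by transcript length and sequenced depth, summing to 318273 to 327480 in controls and 278701 to 309549 in dKO libraries. Absolute depth is unknown. The commonest ratio of a gene's low value in control replicate 1 to its value in another library served as that library's relative depth. Controls 2 and 3 had 0.904 and 1.02, while dKO replicates 1 to 3 had 0.667, 0.809 and 1.08. Low values are thus least precise in dKO replicates 1 and 2. Rnf2 followed the labels, at 53.7, 46.8 and 48.2 FPKM in controls 1 to 3 and 14.8, 8.44 and 5.31 FPKM in dKO replicates 1 to 3 (limma adjusted p = 0.000696), and Ring1 averaged 0.0498 and 0.121 FPKM in the groups. All 13 oocyte markers listed, such as Gdf9 and the zona pellucida genes, passed the filter on low values (at least 1 FPKM in at least 3 libraries). Their sum was 9614 to 10102 FPKM over controls and 5905 to 8291 FPKM over dKO libraries. By limma 0 were called higher and 2 lower, Bmp15 and Kit, which is 0% and 15.4% beside 14.0% and 7.04% of all genes. At an unadjusted p under 0.05 (limma) 0 were higher and 7 lower, and the median log2 difference of the 13 was -0.52. Of 15 granulosa and cumulus cell markers 8 passed the filter, of which 4 were higher in dKO oocytes (Fshr, Inhba, Nr5a2 and Has2) and 0 lower (limma), or 50% higher beside 14.0% of all genes. Fshr, Inhba and Has2 were below 1 FPKM in every control and passed it through the dKO libraries alone. With no filter 3 of the 15 were called higher (limma), beside 9.88% of 20310 genes. Fshr, the receptor of follicle-stimulating hormone, lay between 0.146 and 0.179 FPKM in controls and between 9.24 and 11.6 FPKM in dKO oocytes. The markers did not move together. Cyp19a1 was lower in dKO oocytes, at 9.94 ± 2.04 and 5.78 ± 0.498 FPKM, just short of a call (SD, n = 3; limma adjusted p = 0.05004). Foxl2, Amhr2, Cyp11a1 and Star stayed at or below 0.586 FPKM in every library. The list summed to 27.9 to 35.9 FPKM in controls and 52.2 to 54.2 FPKM in dKO oocytes. No granulosa marker was at 0 in every library. Of 7 stroma and theca markers 0 passed the filter, with sums of 0.495 to 0.641 FPKM in controls and 2.20 to 3.02 FPKM in dKO oocytes. With no filter 3 of the 7 were called higher and 0 lower (limma), beside 9.88% of all genes higher. In 4 of the 7 (57.1%) every dKO library lay above every control, beside 22.3% of genes above 0 in any library. Blood markers summed to 0.551 to 2.04 and 1.41 to 3.56 FPKM, and endothelial markers to 24.2 to 33.1 and 19.4 to 25.3 FPKM. Most of the endothelial sum is Pecam1, which was lower, at 25.2 ± 4.11 and 14.9 ± 2.57 FPKM (SD, n = 3; limma adjusted p = 0.0280). Kdr and Tek went the other way, with every dKO library above every control, in 2 of the 4 markers (50%). Neither was called higher. The part of these cells in the levels given next was not tested.

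Zfp354b, first described as Kid2, was the most abundant of the zinc finger members. Controls 1 to 3 had 1.83, 1.48 and 0.695 FPKM, and dKO replicates 1 to 3 had 8.29, 7.36 and 9.96 FPKM. The lowest dKO library was 4.03 times the highest control. The means were 1.34 ± 0.580 and 8.53 ± 1.32 FPKM (SD, n = 3), a log2 difference of 2.05 ± 0.25 (SE) on the scale of log2(FPKM + 1), which understates the ratios of low values. A pool of 15 oocytes does not tell a higher level in every oocyte from a high level in a few.

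Zfp354c, also known as AJ18, a repressor described in bone-forming cells, had the widest separation between the groups. It was close to 0 in controls, at 0.0872, 0.0345 and 0.0305 FPKM, whereas the dKO libraries held 5.01, 2.91 and 2.36 FPKM. The lowest dKO library was 27.1 times the highest control. The log2 difference was 2.03 ± 0.23 (SE), the same size as that of Zfp354b although its ratio of means was 67.5 against 6.39. In rank among all genes, Zfp354c passed from above 35.5% of them in controls to above 64.5% in dKO oocytes.

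Zfp454 and Zfp879, a pair of little-studied KRAB genes, were below 1 FPKM in every control and above it in every dKO library. Controls held 0.590, 0.115 and 0.119 FPKM of Zfp454 against 1.94, 1.73 and 3.38 FPKM in the dKO libraries, a log2 difference of 1.38 ± 0.24 (SE). Its control replicate 1 was well above the other controls. For Zfp879 the control values were 0.170, 0.205 and 0.152 FPKM and the dKO values 1.10, 1.46 and 1.83 FPKM, a log2 difference of 1.06 ± 0.17 (SE). Its controls were the most alike of the zinc finger members for their level, with a mean of 0.176 ± 0.0273 FPKM (SD, n = 3).

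Zfp354a, or Kid1, a repressor first described in the kidney, was the lowest of the members in dKO oocytes. The control libraries held 0.294, 0.154 and 0.0948 FPKM and the dKO libraries 1.005, 0.797 and 1.51 FPKM, with no overlap. Its means were 0.181 ± 0.103 and 1.11 ± 0.369 FPKM (SD, n = 3), a ratio of 6.11 close to that of Zfp354b, the gene with which it shares sequence. It reached 1 FPKM in only 2 libraries and so failed the filter. Its log2 difference of 0.82 ± 0.18 (SE) comes from a fit with this gene added to those kept. After quantile normalization, which forces the libraries to share one distribution, the difference was 0.21 ± 0.24 (SE).

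Clk4 differed least in ratio and was the only member at or above 1 FPKM in every library. Its control values were 4.15, 5.76 and 3.998 FPKM and its dKO values 9.94, 10.4 and 6.89 FPKM. The lowest dKO library was 1.20 times the highest control. The means were 4.64 ± 0.974 and 9.09 ± 1.92 FPKM (SD, n = 3), a ratio of 1.96 and a log2 difference of 0.84 ± 0.23 (SE). In the order of genes BC049762 lies next to Clk4, and no 50-base stretch of Clk4 transcripts occurs in transcripts of another gene on either strand. The use of strand in counting is not given in the sources used here. BC049762 itself stayed at or below 0.529 FPKM in every library.

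**Figure D1:**
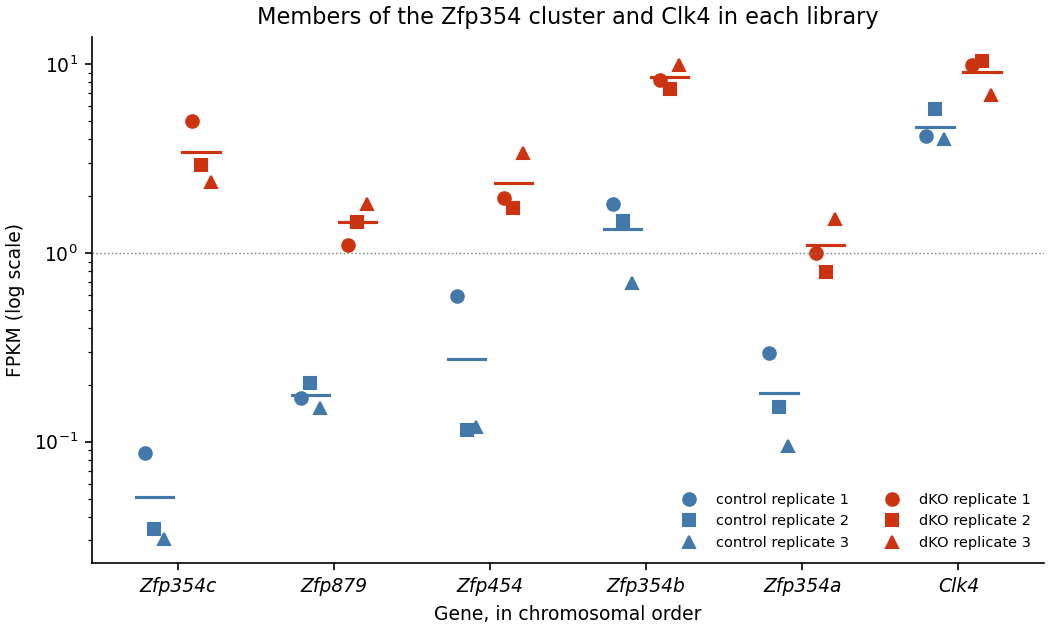
FPKM of the 6 members on a log axis, with genes in chromosomal order, controls in blue and dKO libraries in red. Each point is 1 library, each bar the mean of 3, and the dotted line marks 1 FPKM. In every member all dKO points lie above all control points, with the widest gap in Zfp354c and the narrowest in Clk4.

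The log2 differences of the low members depended on scale. After quantile normalization they were 0.91 for Zfp454 and 0.48 for Zfp879, and with a pseudocount of 0.1 in place of 1 they were 2.88 for Zfp454, 2.48 for Zfp879, 2.12 for Zfp354a and 4.50 for Zfp354c.

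In all 6 members every dKO library lay above every control. The same was true of 22.3% of the 20310 genes above 0 in any library, and the reverse order held for 19.2% of genes that passed the filter. Nothing is read from the members' count because it helped to choose them. Zfp354c, Zfp454 and Zfp879 passed the filter through the dKO libraries alone, Zfp354b with 2 controls at 1 FPKM or more, and Clk4 in all libraries. Libraries with the same replicate number were sequenced in 1 flow-cell lane. Since every dKO library lay above every control, a higher dKO value within each of the 3 lanes follows and adds no check. The ratio within a lane ran from 57.4 to 84.3 for Zfp354c, from 4.54 to 14.3 for Zfp354b, from 3.29 to 28.4 for Zfp454, from 6.47 to 12.05 for Zfp879, from 3.41 to 15.96 for Zfp354a and from 1.72 to 2.39 for Clk4.

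The members did not follow one pattern among the dKO libraries. Zfp354a, Zfp354b, Zfp454 and Zfp879 were highest in dKO replicate 3, the library with the lowest Rnf2 (5.31 FPKM) and the greatest relative depth of the 3. Zfp354c and Clk4 were lowest there: Zfp354c was highest in replicate 1 and Clk4 in replicate 2. Whether the remaining Rnf2 or the depth takes part in this was not tested. Among controls, replicate 1 was the highest for Zfp354a, Zfp354b, Zfp354c and Zfp454, and replicate 2 for Zfp879 and Clk4. Over the 6 libraries the Pearson correlation of log2(FPKM + 1) between Zfp354a and Zfp454 was 0.99 and that between Zfp454 and Clk4 was 0.69. Each such value rests on libraries that fall into 2 separate groups.

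The order of levels differed between the groups. In controls it ran from Clk4 over Zfp354b, Zfp454, Zfp354a and Zfp879 to Zfp354c, and only the neighbours Zfp454 and Zfp354a, and Zfp354a and Zfp879, overlapped in their libraries. In dKO oocytes it ran from Clk4 over Zfp354b, Zfp354c, Zfp454 and Zfp879 to Zfp354a. There Clk4 and Zfp354b overlapped, at 9.09 and 8.53 FPKM on average, as did each neighbouring pair from Zfp354c down, and only the step from Zfp354b to Zfp354c was free of overlap. Zfp354c thus moved from the last place to the third.

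Together the 5 zinc finger members summed to 2.97, 1.99 and 1.09 FPKM in controls 1 to 3 and to 17.3, 14.2 and 19.04 FPKM in dKO replicates 1 to 3. The share of Zfp354b in this sum averaged 66.6% ± 6.94 among controls, against 50.6% ± 2.44 among dKO libraries (SD, n = 3). That of Zfp354c averaged 2.49% ± 0.661 and 20.6% ± 8.23 in the same order. Its share was 28.9, 20.4 and 12.4% in dKO replicates 1 to 3, against 2.94% or less in each control. The shares of Zfp454, Zfp879 and Zfp354a overlapped between the groups.

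**Figure D2:**
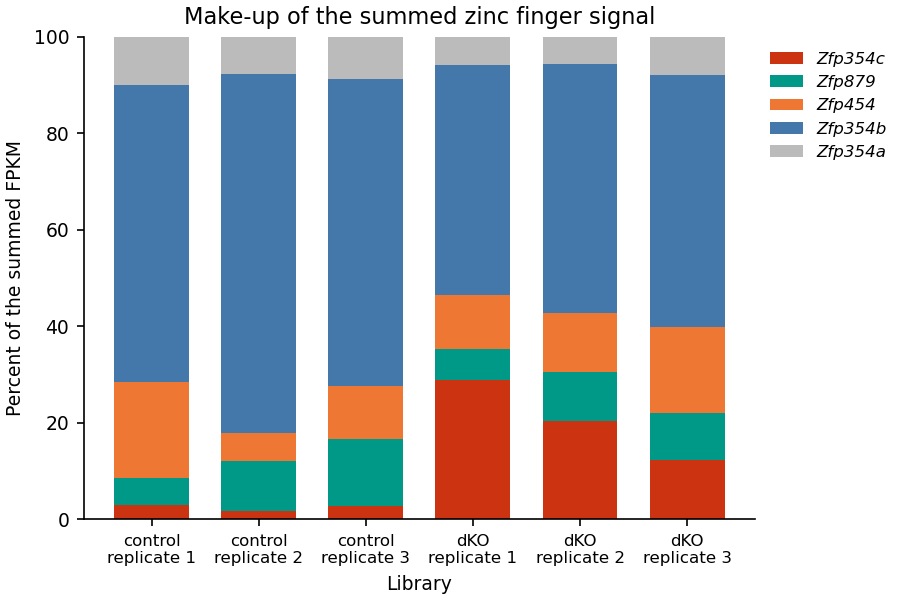
Share of each zinc finger member in the summed FPKM of the 5 genes, in percent, with 1 bar per library. Zfp354b is the largest part of every bar, and Zfp354c takes 12.4 to 28.9% of the dKO bars and 2.94% or less of the control bars.

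Genes that lie among the members were silent or nearly so, and of those around them more were called lower than higher. The neighbourhood was taken as the 9 genes of the deposited table that lie between the members and the 10 on each side, 29 in all. None of the 9 in between passed the filter, and none exceeded 0.529 FPKM in any library. Of these, 4 olfactory receptor genes and the noncoding 9230009I02Rik were listed at 0 throughout. Zfp2, the other zinc finger gene of the cluster, had control values of 0.0113, 0 and 0.0221 FPKM and dKO values of 0.0853, 0.392 and 0.0416 FPKM. Its groups did not overlap, but it stayed far below the members, and with no filter its limma adjusted p was 0.288. The glutamate receptor gene Grm6 reached 0.0236 FPKM at most.

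On the flanks 14 genes were tested (limma, Benjamini-Hochberg adjusted over 11334 genes), of which 1 was higher and 3 lower in dKO oocytes, 7.14% and 21.4%. Over all genes tested 14.0% were higher and 7.04% lower. After quantile normalization 52.6% of all calls were rises, against 66.5% on the deposited scale. The median log2 difference of the 14 was -0.46, against -0.019 for all genes, and the 10 without a call ranged from -0.88 (Ltc4s) to 0.51 (Hnrnpab). Sqstm1, which encodes the autophagy receptor p62, rose from 8.21 ± 0.452 to 13.6 ± 1.65 FPKM (SD, n = 3; limma adjusted p = 0.0293). The endoplasmic reticulum chaperone gene Canx fell from 81.7 ± 7.14 to 57.2 ± 4.19 FPKM, the endosomal gene Rufy1 from 49.0 ± 1.91 to 33.1 ± 5.60 FPKM and 0610009B22Rik from 150.8 ± 5.08 to 105.6 ± 5.28 FPKM (SD, n = 3; limma adjusted p = 0.0372, 0.0415 and 0.0292). With the replicate number as a block 0 of the 3 falls were past the threshold (adjusted p = 0.0634, 0.0551 and 0.0630), nor were they after quantile normalization or without any 1 control. Canx also lost its call with median-ratio scaling and without dKO replicate 2. Rufy1 also lost its call with no filter, with a filter at 5 FPKM and without dKO replicate 1. The call of Sqstm1 was lost on removal of any 1 control, or of dKO replicate 1, with a limma adjusted p of at most 0.131. Adamts2 and Col23a1, the genes nearest the members on either side, were below the filter at 0.881 FPKM or less in every library, and every dKO library was above every control in both. In all, this held for 5 of the 22 neighbours above 0 in any library, Zfp2 among them. The remaining 7 of the 29 were at 0 throughout. Of all genes above 0 in any library, 22.3% had every dKO library above every control. With no filter, where 9.88% of 20310 genes were called higher, Adamts2 was past the threshold and Col23a1 was not (limma adjusted p = 0.0180 and 0.184).

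**Figure D3:**
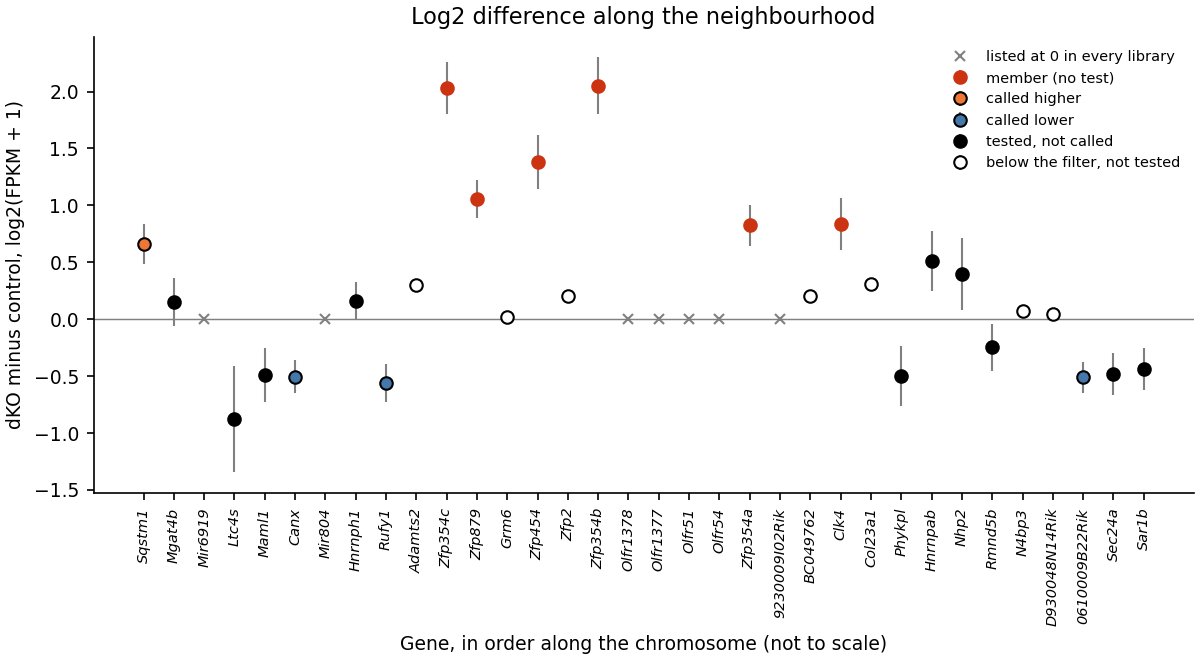
Log2 difference between dKO and control oocytes, on the scale of log2(FPKM + 1), for the 6 members and their neighbouring genes in chromosomal order. Bars are limma standard errors, drawn where a gene was fitted, open circles are genes below the filter and crosses are genes listed at 0 in every library. The members stand at 0.82 to 2.05, above every neighbour, of which the highest is Sqstm1 at 0.66.

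The share of zinc finger genes elsewhere that rose depended on how they were listed. The table holds 384 further genes with zinc finger symbols, which include genes without a KRAB box, and 261 passed the filter. Of these 36 were higher (13.8%) and 11 lower (4.21%) in dKO oocytes by limma, beside 14.0% and 7.04% of all genes, and their median log2 difference was 0.058. The filter keeps a gene below 1 FPKM in every control only if every dKO library reaches 1 FPKM. This favours rises at low control levels. With no filter 34 of 382 were called higher (limma), beside 9.88% of 20310 genes. A stricter list of 194 genes, whose translated transcripts held a KRAB pattern and at least 3 fingers, gave 9 higher (7.26%) and 8 lower (6.45%) of 124 tested and a median of 0.0056. The share higher was thus close to that of all genes in the list by symbol and below it in the stricter list, and neither difference was tested. The largest rises were those of Zfp711 (0.0167 ± 0.0155 to 10.2 ± 1.89 FPKM), Zfp105 (0.677 ± 0.193 to 12.8 ± 4.79 FPKM), Zfp185 (0.222 ± 0.175 to 7.29 ± 2.20 FPKM) and Zfp39 (0.680 ± 0.282 to 8.60 ± 3.49 FPKM; SD, n = 3). Zscan4f, a gene of the early embryo with near-identical copies, followed with a log2 difference of 2.47 ± 0.45 (SE; limma adjusted p = 0.00483). These 5 were past the threshold under every alternative in which they were tested. Of them only Zfp39 is on the stricter list.

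The largest falls among zinc finger genes were those of Zfp414, Zfp69, Zfp541, Zfp955a and Zfp955b, with log2 differences of -1.24, -1.16, -0.86, -0.79 and -0.77. Zfp541, a factor of meiotic spermatocytes, went from 4.36 ± 0.195 to 1.99 ± 0.531 FPKM (SD, n = 3). All 5 lost their call on removal of control replicate 3, Zfp414 also without control replicate 2 and with no filter, and Zfp541, Zfp955a and Zfp955b without any 1 control (limma adjusted p up to 0.110). Zfp955b also lost it without dKO replicate 1 or 2, with no filter and after quantile normalization. The most abundant were Zfp57, which protects imprints, at 1079 ± 52.6 and 862 ± 245 FPKM, and Zfp280b, at 99.0 ± 3.75 and 116 ± 5.40 FPKM (SD, n = 3). Neither was past the threshold (limma adjusted p = 0.320 and 0.259).

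**Figure D4:**
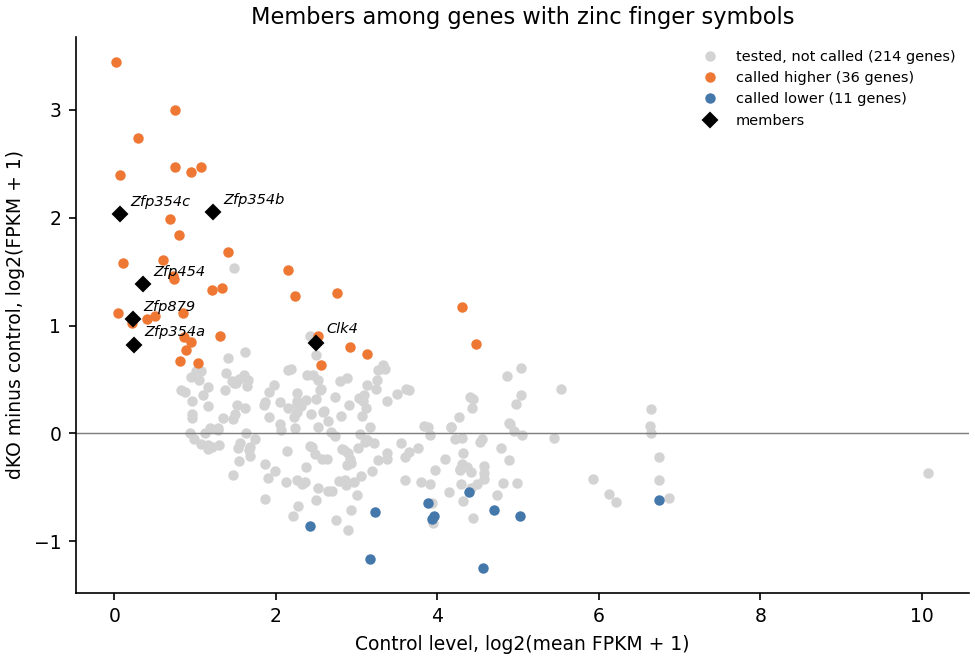
Log2 difference between dKO and control oocytes against the control level, both on the scale of log2(FPKM + 1), for the 261 tested genes with zinc finger symbols and, as black diamonds, the 6 members. The members fall within the range of the 36 genes called higher, and those genes lie mostly at low control levels, where the filter favours rises.

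Other runs of zinc finger genes were set beside this one. A run was taken as at least 5 genes with such symbols, with at most 5 other genes of the table between neighbours, a definition made after the values had been seen. The run from Zfp354c to Zfp354a has 6 genes, and in 6 of 6 every dKO library lay above every control. The gene of this run that is not a member is Zfp2, at 0.392 FPKM or less in every library. In the other 14 runs this order held for 37 of 143 genes (25.9%), from 0 to 80.0% of the genes of a run. Over all 20310 genes above 0 in any library it held for 22.3%, close to the share in the other runs. The nearest were the Zscan4 genes on chromosome 7, at 4 of 5, whose copies are nearly identical, and the run from Zscan12 to Zkscan8 on chromosome 13, at 4 of 6. No test was made, since the cluster was chosen for this property.

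**Figure D5:**
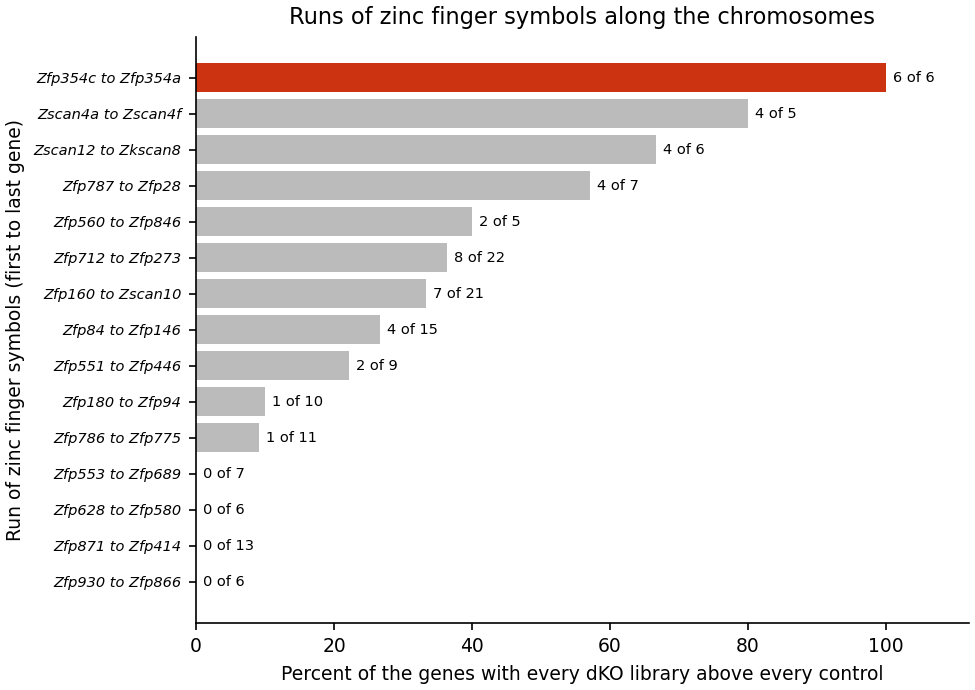
Percent of the genes in each of 15 runs of zinc finger symbols for which every dKO library lay above every control, with counts beside the bars. The run that holds the members (red) stands at 6 of 6 and the others between 0 and 80.0%. The share over all genes above 0 in any library was 22.3%.

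No gene for a partner of KRAB factors passed the test as higher. Of 21 such genes, all tested, 0 rose and 2 fell (limma; 3 higher and 4 lower at an unadjusted p under 0.05), which is 0% and 9.52% beside 14.0% and 7.04% of all genes. Their median log2 difference was -0.11. Trim28, the corepressor itself, was at 40.6 ± 4.47 and 34.1 ± 12.05 FPKM, and the histone methyltransferase gene Setdb1 at 80.1 ± 3.46 and 58.7 ± 10.9 FPKM (SD, n = 3; limma adjusted p = 0.433 and 0.0823). The 2 that fell were Dnmt3a and Dnmt3l, the de novo DNA methyltransferase of oocytes and its cofactor, with Dnmt3a at 34.2 ± 0.398 and 23.0 ± 1.58 FPKM and Dnmt3l at 41.6 ± 1.38 and 25.2 ± 5.65 FPKM (SD, n = 3; limma adjusted p = 0.0242 and 0.0236). Both lost their call without any 1 control, and Dnmt3a also after quantile normalization (limma adjusted p up to 0.118). Dnmt3b went the other way without a call, at 5.73 ± 1.30 and 9.55 ± 0.677 FPKM (SD, n = 3; limma adjusted p = 0.0512). With median-ratio scaling its rise was past the threshold (limma adjusted p = 0.0389).

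Among genes related to the function of Clk4 no change passed the test. Of 20 kinases and SR proteins 18 were tested, of which 0 rose and 0 fell (limma; 0 higher and 1 lower at an unadjusted p under 0.05), beside 14.0% and 7.04% of all genes. Their median log2 difference was -0.16. Clk1, another kinase of the same family, stood at 47.2 ± 7.60 and 42.6 ± 3.12 FPKM (SD, n = 3; limma adjusted p = 0.592) and thus well above Clk4 in both groups. With the replicate block 1 gene, Srsf9, was higher (limma adjusted p = 0.0374), and with no filter 1 other, Srsf12, was (0.00346).

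Some genes elsewhere had nearly the same profile over the 6 libraries. For the mean of the 5 zinc finger members on the log2 scale, the genes with the highest Pearson correlation were Lonrf2, Rnf144b and Sox30, each at 0.998. Lonrf2 averaged 4.36 FPKM over the controls and 17.6 FPKM over the dKO libraries. For Clk4 they were Zwint, Lcp2 and Abhd17c, at 0.997, 0.995 and 0.995. Such likeness is common here: of 10618 genes compared, 674 had a correlation above 0.95 with the zinc finger members and 127 with Clk4.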

How the data were processed

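Total RNA of 6 oocyte libraries (3 control, 3 dKO) was amplified with the Ovation v2 kit and sequenced on a HiSeq instrument, per the labels' protocols. The deposited values are FPKM, made by the authors, and the submitters' processing notes name TopHat2 2.0.11, Cufflinks 2.0.2 and build mm9. The sources used here give neither annotation nor strand. Of 24525 rows 497 were exact repeats and were removed.

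The filter required 1 FPKM or more in 3 or more libraries and kept 11334 genes. Log2(FPKM + 1) values were fitted with limma 3.58.1 in R 4.3.3 (trended variance, two-sided, Benjamini-Hochberg over all kept genes, threshold 0.05), which was tested on simulated data. The members and lists were chosen with earlier results of these data known. Symbols replaced the planned protein list, as no protein table was used here. Named genes are the members, neighbours, the 5 largest rises and falls and the 2 most abundant of the zinc finger list, Trim28, Setdb1, Clk1, called list members and the 3 best-correlated genes. Zfp2, Grm6, Adamts2, Col23a1, Srsf9, Srsf12, Dnmt3b, Kdr, Tek and the granulosa markers without a call were named after their values were seen. A gene of the neighbourhood that stays in its counts is not reported here. Same-numbered libraries shared a lane per the labels, and their deviations from group means correlated at 0.147, 0.107 and 0.0637. Alternatives were other pseudocounts, filters, scalings, array weights, the replicate block and removal of each library. The sequencing index differs between the groups and is shared within each, so its effect and that of genotype cannot be told apart. Whether replicates differ beyond the female and the lane is not given. The motifs were typed from general knowledge of the factors, and only sequence read from the RefSeq table is printed.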

Additional observations from a re-analysis of the deposited data

How the results depend on the processing

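The count of all genes higher went from 1587 of 11334 tested to 655 of 7418 with a filter at 5 FPKM. It was 1191 after quantile normalization, 1638 with median-ratio scaling and 1681 with the replicate block, each of 11334, and 2006 of 20310 with no filter. All genes lower numbered 559 of 7418 with a filter at 5 FPKM and 545 of 20310 with no filter. They numbered 1073 after quantile normalization and 887 with the replicate block, each of 11334. Zinc finger genes higher numbered 13 of 150 with a filter at 5 FPKM, 23 of 261 after quantile normalization and 9 of 124 in the list by translated transcript. Those lower numbered 5 of 382 with no filter and 7 of 150 with a filter at 5 FPKM. Neighbours higher numbered 2 of 22 with no filter, and neighbours lower 0 of 14 after quantile normalization and 0 of 14 with the replicate block. Cofactor genes numbered 1 higher of 21 with median-ratio scaling and 1 lower of 21 after quantile normalization. CLK and SR protein genes higher numbered 1 of 20 with no filter and 1 of 18 with the replicate block. The cause was not tested. Leaving out 1 library at a time gave, of 11334 genes, 1087 to 1869 higher and 231 (control replicate 3) to 1465 (dKO replicate 2) lower. Of 261 zinc finger genes 23 to 38 were higher and 0 to 20 lower. Of 14 neighbours 0 to 3 were higher and 0 to 3 lower, and of 21 cofactor genes 0 to 1 higher and 0 to 5 lower. Fewer reads behind low values, in dKO replicates 1 and 2, limit what can be said of genes below 1 FPKM, and 3 libraries a group limit every call.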
